A study of Mus musculus with 7 samples.

Results

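Pmel, Mlph, Mreg, Tspan10, Lyst, Dtnbp1, Bloc1s1, Bloc1s5, Ap3d1 and Ap3b1 are 10 mouse genes of melanosome formation and transport, and their messenger RNA was compared between Dicer1-deficient and control retinal pigment epithelium (RPE). They were chosen by name from a table of 5017 genes. Every probe set that the platform annotation gives to 1 gene and whose symbol is one of the 10, older synonyms included, was taken. All 10 genes were found, with 174 of 53644 such probe sets, Pmel under the older symbol Si and Bloc1s5 under Muted.

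Dicer1-deficient RPE was measured on 3 arrays and control RPE on 4. Both came from pups of a cross between Dicer1 flox/+ Dct-Cre and Dicer1 flox/flox mice, in which Cre, made under the promoter of Dct (dopachrome tautomerase, a gene of pigment cells), removes loxP-flanked parts of Dicer1, the gene of the enzyme that makes mature microRNAs. The Dicer1-deficient group has the genotype Dicer1loxP/loxP;Dct-Cre in the labels. The control group is labelled only as control RPE, so whether these pups carry Cre is unknown here. All pups were killed at postnatal day 5, and the RPE, the pigmented layer behind the photoreceptors, was dissected from the eye. Dct is also active in melanocytes, which the choroid beside the RPE contains. The labels do not tie arrays to animals. The p-values therefore reflect only how these samples vary, and part of that variation may be technical.

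A melanosome is a lysosome-related organelle in which melanin is made and stored. It starts as an endosome in which the cleaved PMEL protein forms fibrils, it receives its enzymes by vesicle and tubule traffic from endosomes, and it is then moved along microtubules and actin. AP-3 is an adaptor complex and BLOC-1 a further complex that sort melanosome cargo at endosomes, and mice that lack their subunits have pale coats and pale eyes. Melanophilin, the product of Mlph, ties the GTPase RAB27A on the melanosome to myosin Va in melanocytes. Melanoregulin, the product of Mreg, affects melanosome distribution and, in RPE, the breakdown of ingested photoreceptor tips. MITF, the regulator of many pigment genes, binds E-box sequences.

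The promoters of Mlph, Tspan10 and Bloc1s1 are shown because only these 3, of the 9 genes with a promoter window, carry an E-box form bound by MITF near the start of transcription. Each is 300 bases of RefSeq sequence (build GRCm38.p6), from 250 bases before the start to 50 bases after it, read along the gene, with the matches in capitals. Mlph lies at chr1:90914850-90915149 on the plus strand, Tspan10 at chr11:120442381-120442680 on the plus strand and Bloc1s1 at chr10:128923475-128923774 on the minus strand.
Mlph: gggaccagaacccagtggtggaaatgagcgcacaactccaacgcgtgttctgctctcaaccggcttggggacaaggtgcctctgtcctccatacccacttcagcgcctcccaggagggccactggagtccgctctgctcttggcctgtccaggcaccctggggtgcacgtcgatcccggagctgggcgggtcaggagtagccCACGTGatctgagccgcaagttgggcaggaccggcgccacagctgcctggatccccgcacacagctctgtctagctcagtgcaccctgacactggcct
Tspan10: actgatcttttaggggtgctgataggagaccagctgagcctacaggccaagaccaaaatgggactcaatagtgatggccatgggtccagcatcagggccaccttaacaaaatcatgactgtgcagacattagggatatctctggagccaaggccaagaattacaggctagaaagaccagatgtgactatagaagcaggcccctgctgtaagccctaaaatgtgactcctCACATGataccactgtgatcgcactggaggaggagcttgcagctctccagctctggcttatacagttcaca
Bloc1s1: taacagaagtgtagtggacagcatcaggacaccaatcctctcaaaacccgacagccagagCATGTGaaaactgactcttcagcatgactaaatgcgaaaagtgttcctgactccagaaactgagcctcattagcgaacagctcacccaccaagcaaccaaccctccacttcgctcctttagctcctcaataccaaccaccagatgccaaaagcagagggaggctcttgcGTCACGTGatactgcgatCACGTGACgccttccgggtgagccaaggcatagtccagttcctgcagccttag
Both strands were searched for CATGTG and CACGTG, for GTCACGTG (which contains CACGTG and is a form bound by MITF and its relative TFEB at lysosomal genes) and for TAATCC (the core bound by OTX proteins). Mlph had CACGTG, its first base 48 bases before the start. Tspan10 had CATGTG on the opposite strand, from 21 bases before the start. In Bloc1s1 GTCACGTG began 21 bases before the start, its reverse complement 3 bases before it, and CATGTG 190 bases before it. Of all 32851 promoter windows in the table, 14.2% held CATGTG, 7.15% CACGTG, 2.25% GTCACGTG and 7.06% TAATCC. The table gave 10 windows for the 9 genes, and no TAATCC was in any of them. A match is a description of the letters in these windows and shows no binding.

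The values are log2 signals of Affymetrix probe sets, each for part of a gene, and the median of the whole table was 6.22. A signal below that median was not shown to be above background. Control array 4 stood apart, with a median of 6.05 against 6.22 to 6.26 in the other 6 arrays and a correlation of 0.942 to 0.951 with them across probe sets. The gene fit used the brightest probe set of each gene. A log2 fold change is Dicer1-deficient minus control, p-values are limma's with Benjamini-Hochberg adjustment over all 5017 genes, and the threshold is 0.05. Dicer1 itself read 10.57 ± 0.13 (SD, n = 3) in Dicer1-deficient and 10.62 ± 0.26 (SD, n = 4) in control arrays, and no label names the exons between the loxP sites, so this signal is no check of the deletion.

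None of the 10 genes passed the limma test at its brightest probe set, where 2.33% of all genes passed. At an unadjusted p under 0.05 there were 3 (Mlph, Mreg and Tspan10), all lower, where 6.6% of all genes were lower at that level. Of the 10 genes 8 had a negative log2 fold change, as did 51.9% of all genes, and the median was -0.14, against -0.01 for all genes. When a gene's probe sets were averaged, 1 gene, Bloc1s1, fell past the threshold, where 2.83% of all genes fell, and with their median 1 other, Mlph, did. The largest negative values at the brightest probe set were those of Mreg, Mlph and Bloc1s5, and the AP-3 genes lay nearest 0. In dissected tissue, fewer cells of a type and less RNA per cell cannot be told apart.

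**Figure D1:**
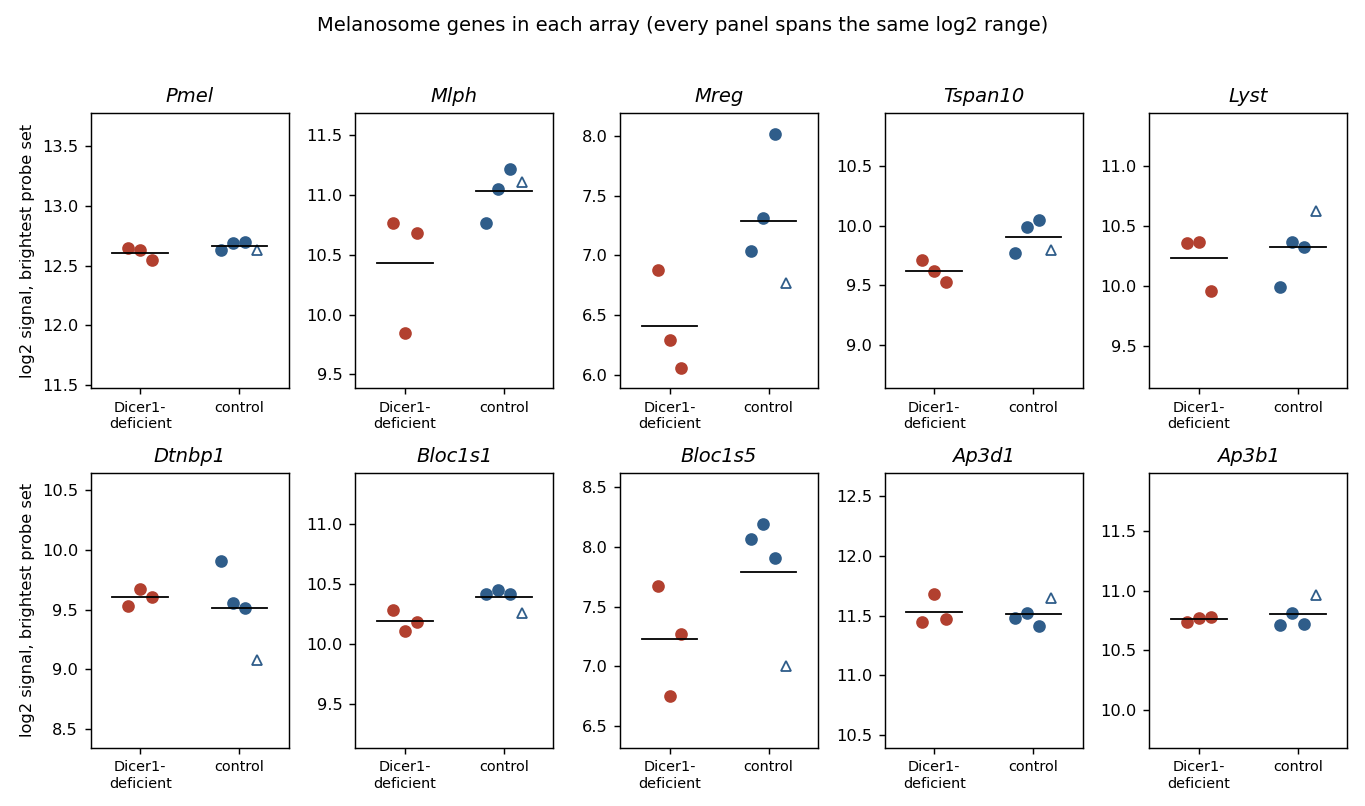
Log2 signal of the brightest probe set of each of the 10 genes in the 3 Dicer1-deficient arrays (left in each panel) and the 4 control arrays (right). Black bars are group means, the open triangle is control array 4, and every panel spans the same log2 range. Only for Tspan10 do the groups not overlap.

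Pmel, which encodes the fibril protein of the early melanosome, was nearly level at its brightest probe set. It read 12.65, 12.63 and 12.55 in Dicer1-deficient arrays, against 12.63, 12.69, 12.70 and 12.63 in control arrays. The groups overlapped within about the same narrow range, and the log2 fold change was -0.05 (95% interval -0.25 to 0.15, limma adjusted p = 0.907). Its probe sets did not all behave alike. After the values were seen they were divided by brightness: the 7 brightest, with Dicer1-deficient means of 11.63 to 12.61 and control means of 11.69 to 12.66, had log2 fold changes of -0.14 to 0.04. The 6 dimmest, with Dicer1-deficient means of 6.18 to 11.54 and control means of 6.98 to 11.75, were all lower, at -0.81 to -0.19. The same division follows the probe set numbers, 10367380 to 10367386 and 10367387 to 10367392, and whether the numbers follow the transcript is not given in the sources used here. Averaged over its 13 probe sets, Pmel read 11.17, 11.08 and 11.05 in Dicer1-deficient arrays and 11.29, 11.35, 11.37 and 11.23 in control arrays. There the groups did not overlap, which was so in the lower direction for 8.65% of all genes, and the difference of -0.21 did not pass (limma adjusted p = 0.189).

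Mlph, the gene of the RAB27A effector melanophilin, lay lower at every one of its probe sets. At the brightest it read 10.77, 9.85 and 10.68 in Dicer1-deficient arrays, against 10.77, 11.05, 11.22 and 11.11 in control arrays. Dicer1-deficient array 2 was the lowest, and array 1 was level with control array 1. The log2 fold change was -0.60 (SE 0.23, 95% interval -1.14 to -0.07, limma adjusted p = 0.281). Without Dicer1-deficient array 2 it was -0.31, so that array carried much of the size.

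All 17 probe sets of Mlph had a negative log2 fold change, from -0.93 to -0.13 with a median of -0.45. Of the 2114 genes with at least 10 probe sets, 3.74% had every probe set lower. Probe sets of one gene share the arrays and are no replicates. In 6 of the 17 the groups did not overlap, as in 6.62% of all probe sets in that direction. Of these, probe set 10348473 passed limma over all 53644 probe sets, of which 0.406% passed in that direction. It read 7.24, 6.98 and 7.12 in Dicer1-deficient arrays and 7.74, 7.90, 8.01 and 7.78 in control arrays (log2 fold change -0.74, SE 0.13, limma adjusted p = 0.0466). This was the only 1 of the 174 probe sets to pass. It passed again without control array 4 (-0.77, limma adjusted p = 0.0308), and no probe set passed when any other array was left out. With the median of its probe sets as the value of the gene, Mlph passed (-0.84, limma adjusted p = 0.0351), where 1.57% of all genes fell, and with their mean it did not (-0.47, limma adjusted p = 0.117).

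**Figure D2:**
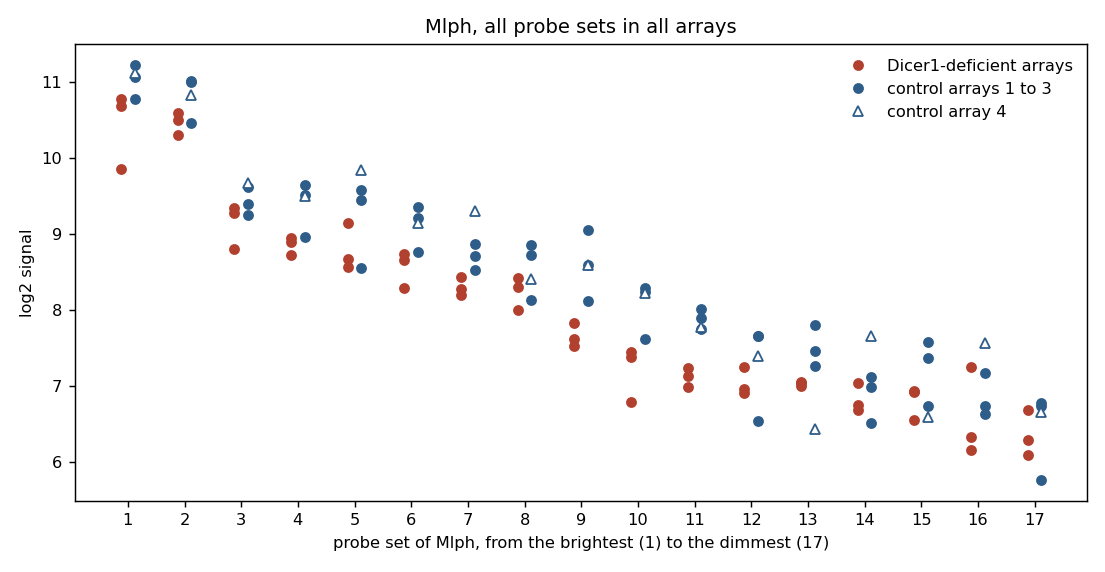
Log2 signal of the 17 probe sets of Mlph, from the brightest at the left to the dimmest at the right, in 3 Dicer1-deficient arrays (red) and 4 control arrays (blue, array 4 as an open triangle). The Dicer1-deficient mean was the lower one at each probe set, and the groups were fully apart at 6 of them.

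Mreg, the gene of melanoregulin, had the largest difference among the 10 genes at the brightest probe set and also a wide spread. It read 6.88, 6.29 and 6.06 in Dicer1-deficient arrays, against 7.04, 7.31, 8.02 and 6.77 in control arrays. Dicer1-deficient array 1 lay above control array 4, the lowest control, and below the 3 others. The log2 fold change was -0.87 (SE 0.31, 95% interval -1.60 to -0.15, limma adjusted p = 0.249). Only 1 of its 7 probe sets had a mean above the median of all probe sets, so most of the gene's signal was not shown to be above background. Probe set 10355458, one of those dim ones, read 5.36, 5.19 and 5.30 in Dicer1-deficient arrays and 5.84, 6.15, 6.29 and 6.45 in control arrays. Its groups did not overlap, and its log2 fold change was -0.90 (SE 0.16, limma adjusted p = 0.056 over all probe sets). It passed without control array 4 (-0.81, limma adjusted p = 0.0401). As both group means lay below the median of the table, the size of this difference is uncertain.

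Tspan10, which encodes a tetraspanin also named oculospanin, gave opposite answers at different probe sets. The brightest read 9.71, 9.62 and 9.53 in Dicer1-deficient arrays, against 9.77, 9.99, 10.05 and 9.80 in control arrays. It was the only one of the 10 genes whose groups did not overlap there, which was so in the lower direction for 7.02% of all genes. The log2 fold change was -0.28 (SE 0.11, limma adjusted p = 0.290). Probe set 10383355 went the other way, with 9.55, 9.33 and 9.49 in Dicer1-deficient arrays and 8.46, 9.06, 9.34 and 8.71 in control arrays. That difference was 0.56 (SE 0.22, limma adjusted p = 0.364 over all probe sets), and the remaining pair of probe sets lay at -0.07 and -0.06. Averaged over the 4 probe sets, the gene was level, at 0.04 (95% interval -0.21 to 0.29).

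**Figure D3:**
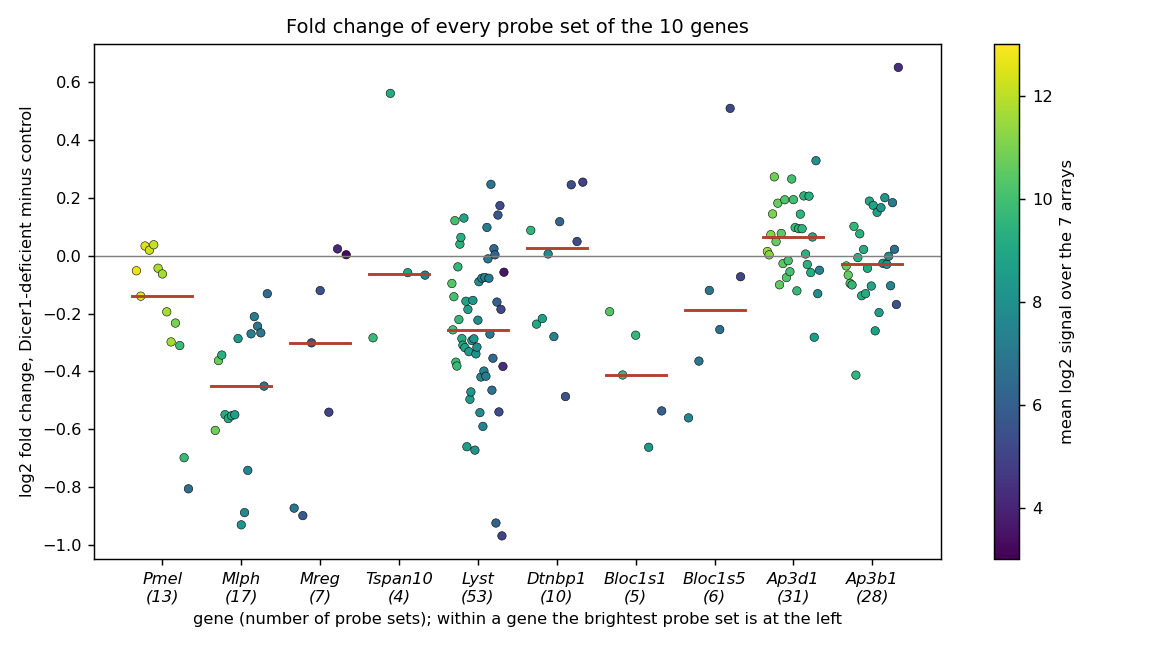
Log2 fold change, Dicer1-deficient minus control, of all 174 probe sets of the 10 genes, coloured by mean log2 signal, with the brightest of each gene at the left and red bars at the medians. All 17 of Mlph and all 5 of Bloc1s1 lie below 0, those of Ap3d1 and Ap3b1 spread on both sides of it, and those of Tspan10 point both ways.

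Lyst encodes a large protein that sets the size of lysosomes and related organelles, and its loss gives the beige mouse its giant melanosomes. Its brightest probe set read 10.36, 10.37 and 9.96 in Dicer1-deficient arrays, against 9.99, 10.37, 10.33 and 10.63 in control arrays. The groups overlapped throughout, and the log2 fold change was -0.10 (95% interval -0.50 to 0.31, limma adjusted p = 0.914). Over its 53 probe sets, 43 were lower and 10 higher, with a median of -0.26, where 50.3% of all probe sets were lower. None passed. A run of 10 neighbouring probe set numbers, 10403643 to 10403652, picked after the values were seen, lay at -0.97 to -0.31 with a median of -0.52, and the other 43 had a median of -0.16. The average of its probe sets gave Lyst a log2 fold change of -0.24 (95% interval -0.52 to 0.03, limma adjusted p = 0.360), with Dicer1-deficient array 3 the lowest at 7.31 and the other 6 arrays at 7.68 to 7.93.

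Of the BLOC-1 genes, Bloc1s1 fell when its probe sets were averaged, but not with their median or at the brightest. Bloc1s1 encodes a subunit that BLOC-1 shares with the lysosome-positioning complex BORC. Its 5 probe sets averaged 8.71, 8.45 and 8.63 in Dicer1-deficient arrays, against 9.07, 9.07, 9.05 and 8.86 in control arrays. All Dicer1-deficient arrays lay below all controls, of which array 4 was the lowest. Its log2 fold change was -0.42 (SE 0.10, 95% interval -0.63 to -0.20, limma adjusted p = 0.0351). The median of the probe sets gave -0.25 (limma adjusted p = 0.240). With 1 array left out, the averaged value was -0.47 to -0.34 and passed only without control array 4 (limma adjusted p = 0.0049), while the other 6 fits gave 0.0741 to 0.158. The 5 probe sets were all lower, at -0.66 to -0.19, which held for 6.75% of the 3557 genes with at least 5 probe sets. The smallest difference was that of the brightest, which read 10.28, 10.11 and 10.18 in Dicer1-deficient arrays and 10.42, 10.45, 10.42 and 10.26 in control arrays. It did not pass (-0.19, SE 0.10, limma adjusted p = 0.433), and Dicer1-deficient array 1 lay just above control array 4.

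Bloc1s5, the gene altered in the muted mouse, read 7.67, 6.75 and 7.27 in Dicer1-deficient arrays, against 8.07, 8.19, 7.91 and 7.00 in control arrays. Control array 4 lay among the Dicer1-deficient arrays and the other 3 controls above them. Its log2 fold change at this brightest probe set was -0.56 (SE 0.32, limma adjusted p = 0.513), and without control array 4 it was -0.83 (SE 0.22, limma adjusted p = 0.0848). Of its 6 probe sets 5 were lower and 1 higher, at -0.56 to 0.51. The higher one had both group means below the median of the table. Averaged over its probe sets with all 7 arrays, Bloc1s5 lay at -0.14 (95% interval -0.54 to 0.25) and did not pass. Dtnbp1 encodes dysbindin, the subunit missing in the sandy mouse. It read 9.53, 9.67 and 9.61 in Dicer1-deficient arrays, against 9.91, 9.56, 9.51 and 9.08 in control arrays, again with control array 4 the lowest. The log2 fold change of Dtnbp1 was 0.09 (95% interval -0.34 to 0.51, limma adjusted p = 0.934), and without that array it was -0.06. Of its 10 probe sets 6 were higher and 4 lower.

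The AP-3 genes showed the smallest differences at the brightest probe set with all 7 arrays. Ap3d1 encodes the delta subunit, missing in the mocha mouse, and read 11.45, 11.68 and 11.47 in Dicer1-deficient arrays, against 11.48, 11.52, 11.41 and 11.65 in control arrays. Ap3b1 encodes the beta subunit altered in the pearl mouse, and read 10.74, 10.77 and 10.78 in Dicer1-deficient arrays, against 10.71, 10.81, 10.72 and 10.96 in control arrays. The Dicer1-deficient arrays lay inside the range of the controls, except Ap3d1 in array 2, which lay just above it. The log2 fold change of Ap3d1 was 0.01 (95% interval -0.23 to 0.26, limma adjusted p = 0.981). For Ap3b1 it was -0.03 (95% interval -0.26 to 0.19, limma adjusted p = 0.958). Of the 31 probe sets of Ap3d1 20 were higher and 11 lower, at -0.28 to 0.33. Those of Ap3b1 were 11 higher and 17 lower, at -0.41 to 0.65, and none of either gene passed. Averaged over probe sets, Ap3d1 read 9.88, 9.83 and 9.83 in Dicer1-deficient arrays and 9.75, 9.82, 9.78 and 9.80 in control arrays. These groups did not overlap, which was so in the higher direction for 10.2% of all genes, and the difference was 0.06 (95% interval -0.11 to 0.22).

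**Figure D4:**
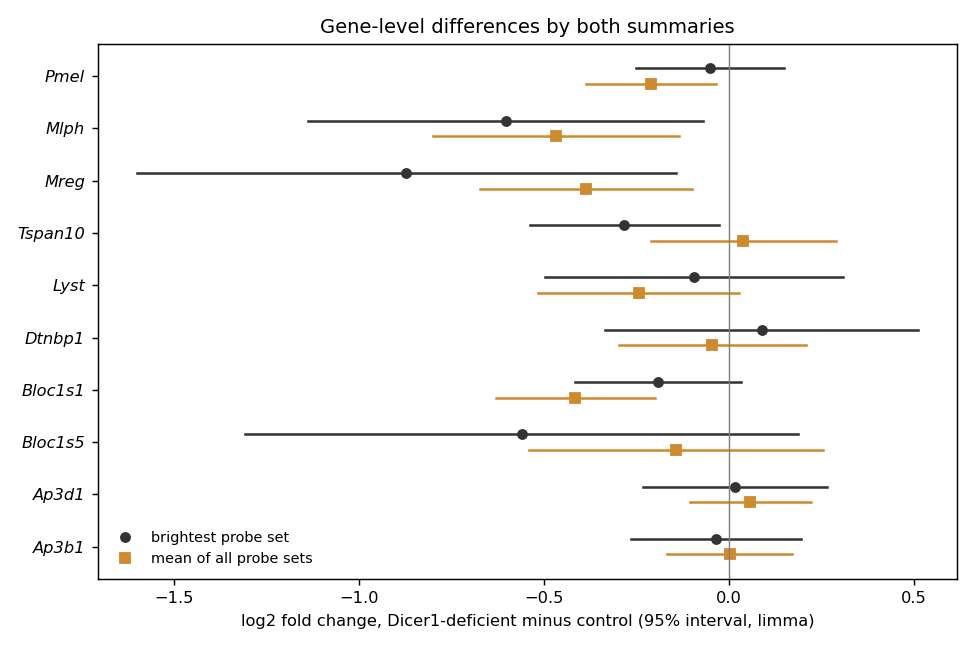
Log2 fold change, Dicer1-deficient minus control, of the 10 genes with 95% intervals from limma (not adjusted for many tests), by the brightest probe set (black) and by the mean of all probe sets (orange). Bloc1s1 on the mean is the 1 value past the adjusted threshold, and the sign of Tspan10, Dtnbp1 and Ap3b1 depends on the summary.

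Control array 4 bears on several of these values. It was the lowest control for Pmel, Mreg, Dtnbp1, Bloc1s1 and Bloc1s5 at the brightest probe set, and the highest for Lyst, Ap3d1 and Ap3b1. Without it the groups no longer overlapped for 4 genes, all lower in Dicer1-deficient arrays (Mreg, Tspan10, Bloc1s1 and Bloc1s5), where 12% of all genes were so. None of the 10 passed in that fit. With probe sets averaged and control array 4 left out, 4 of the 10 fell past the threshold, where 10.3% of all genes did. These were Pmel (-0.24, limma adjusted p = 0.0287), Mreg (-0.47, adjusted p = 0.0214), Bloc1s1 (-0.47, adjusted p = 0.0049) and Bloc1s5 (-0.32, adjusted p = 0.0209). Mlph did not (-0.44, limma adjusted p = 0.0954). For the 10 genes as a set, no array but control array 4 was left out with probe sets averaged. For Bloc1s1 alone each other array was left out too, and the averaged value then did not pass (limma adjusted p 0.0741 to 0.158). The mean log2 signal over the 10 genes was 10.004, 9.774 and 9.809 in Dicer1-deficient arrays and 10.078, 10.193, 10.229 and 9.989 in control arrays, with Dicer1-deficient array 1 inside the control range.

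Other genes of the pathway were taken from 9 lists of 115 genes, of which 27 were measured. At the brightest probe set 3 of the 27 rose and none fell, where 1.42% of all genes rose and 0.917% fell, and their median log2 fold change was 0.01. The lists were drawn up with the rise of Otx1 already known, so that count is a description. Of the 27 genes 14 had a positive and 13 a negative log2 fold change. The lowest was that of Slc24a4, from the list of membrane proteins and carriers, named after its values were seen (-0.69, limma adjusted p = 0.346). With probe sets averaged Slc24a4 was at -0.70 (limma adjusted p = 0.136). None of the melanin synthesis enzymes (Tyr, Tyrp1, Dct), the other BLOC-1 subunits or the BLOC-2 and BLOC-3 subunits were analysed here.

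Ap1s3, a sigma subunit of AP-1, the adaptor that also carries cargo to melanosomes, read 7.11, 7.43 and 7.05 in Dicer1-deficient arrays, against 5.50, 6.04, 5.89 and 5.86 in control arrays. All Dicer1-deficient arrays were higher, by 1.37 on the log2 scale (SE 0.16, limma adjusted p = 0.0049). Its control signal lay below the median of the table, which leaves the size uncertain. It passed in all 7 fits with 1 array left out (limma adjusted p 0.0068 to 0.0331) and with probe sets averaged (0.71, adjusted p = 0.0148). Mfsd12, a transporter of the lysosome and melanosome membrane that affects pheomelanin, read 8.08, 7.98 and 7.97 in Dicer1-deficient arrays, against 7.37, 7.62, 7.52 and 7.30 in control arrays. The groups did not overlap and Mfsd12 rose by 0.56 (SE 0.11, limma adjusted p = 0.047). It passed in only 1 of the 7 left-out fits, the one without control array 4 (adjusted p up to 0.198 in the others), and not with probe sets averaged (0.29, adjusted p = 0.220). The homeobox gene Otx1 read 8.07, 8.37 and 8.22 in Dicer1-deficient arrays, against 6.51, 6.64, 6.38 and 5.76 in control arrays, and rose by 1.90 (SE 0.21, limma adjusted p = 0.0044).

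In the remaining lists no gene passed. The BEACH-domain relatives of Lyst gave 0 of 2, with Wdr81 at 0.53 (limma adjusted p = 0.086) and Nbeal1 at 0.08. Averaging its probe sets put Wdr81 past the threshold (0.39, limma adjusted p = 0.0425). The list of HOPS and CORVET tethers and related genes, which act where endosomal membranes are brought together, gave 0 of 3. Tgfbrap1 was at -0.09 and Vipas39 at 0.05. Of 6 Rab GTPases and regulators, the 2 largest values were those of Rab3ip (0.28) and Rab32 (-0.19), the GTPase that works with BLOC-2 in cargo delivery. Of 3 motor genes, Dctn2 (-0.19) and Bicd2 (-0.08) had the largest values. Averaging probe sets turned the sign of Tgfbrap1 (0.09), Rab3ip (-0.06) and Bicd2 (0.25). The averaged Bicd2 groups did not overlap, which was so in the higher direction for 10.2% of all genes. Vipas39 (0.21), Rab32 (-0.31) and Dctn2 (-0.18) kept their sign on that average, and none of these 6 genes passed.

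Markers of several cell types were set beside the melanosome genes, and their part in these values was not tested. Of the RPE markers 5 of 14 were measured, all lower. The log2 of their summed signal, in which the brightest genes weigh most, was 13.43 to 13.55 in Dicer1-deficient and 13.84 to 13.97 in control arrays. Kcnj13, a potassium channel gene of the RPE, was the 1 that passed (-1.19, limma adjusted p = 0.0051), with Serpinf1 at -0.23 and Sulf1 at -0.43. With probe sets averaged, 4 of the 5 fell past the threshold, where 2.83% of all genes fell. Among them were Sulf1 (-0.84) and, named after their values were seen, Rdh5 (-0.72) and Rdh10 (-0.54). Of the melanocyte and Schwann cell markers 4 of 14 were measured, again all lower and none past the test: Pax3 at -0.90, Erbb3 at -0.59, Cdh19 at -0.34 and Pmp22 at -0.10. The log2 of their summed signal was 12.04 to 12.08 in Dicer1-deficient and 12.21 to 12.44 in control arrays. With probe sets averaged, Pax3 (-0.91) and Erbb3 (-0.39) fell past the threshold, where 2.83% of all genes fell. Sox10, Kit, Ednrb and Mlana, the defining melanocyte genes of the list, were not analysed here, and melanocytes share the melanosome genes with the RPE.

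Of the markers of fibroblasts, choroid stroma and sclera 8 of 12 were measured and 7 were lower, with the brightest, Col3a1 and Col1a1, at 0.01 and -0.01. Named after their values were seen, Omd (-0.92), Fmod (-0.60) and Prelp (-0.50) had the largest differences. The groups did not overlap for these or for Ogn (-0.22), which was so in the lower direction for 7.02% of all genes. None of the 8 passed, while with probe sets averaged Fmod (-0.82) and Omd (-0.57) fell, where 2.83% of all genes fell. On that average all 8 were lower. Col3a1 was then at -0.27 and Col1a1 at -0.36 (limma adjusted p = 0.136 and 0.062). The averaged groups did not overlap for 6 of the 8, which was so in the lower direction for 8.65% of all genes. The log2 of the summed signal of the list was 14.95 to 15.10 in Dicer1-deficient and 15.09 to 15.22 in control arrays. For the photoreceptor list (4 of 14 measured) the log2 of the summed signal was 8.06 to 9.11 in Dicer1-deficient and 7.20 to 8.37 in control arrays. Sag was at 0.41 and Pde6g at 1.38, neither past the test. Named after their values were seen, Rp1 was at 0.76 and Rcvrn at -0.01. The control means of Pde6g (5.82), Rp1 (5.26) and Rcvrn (4.86) lay below the median of the table, which leaves their sizes uncertain. For macrophages (3 of 10) the log2 of the summed signal was 10.67 to 10.91 in Dicer1-deficient and 10.61 to 11.31 in control arrays. Lyz2 was at -0.02 and Ptprc at 0.03. The remaining macrophage marker Cd68, named after its values were seen, was at -0.46 (limma adjusted p = 0.170). Its groups did not overlap, which was so in the lower direction for 7.02% of all genes. In mean log2 signal the RPE, melanocyte and fibroblast lists separated the groups without overlap, while the photoreceptor and macrophage lists did not.

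**Figure D5:**
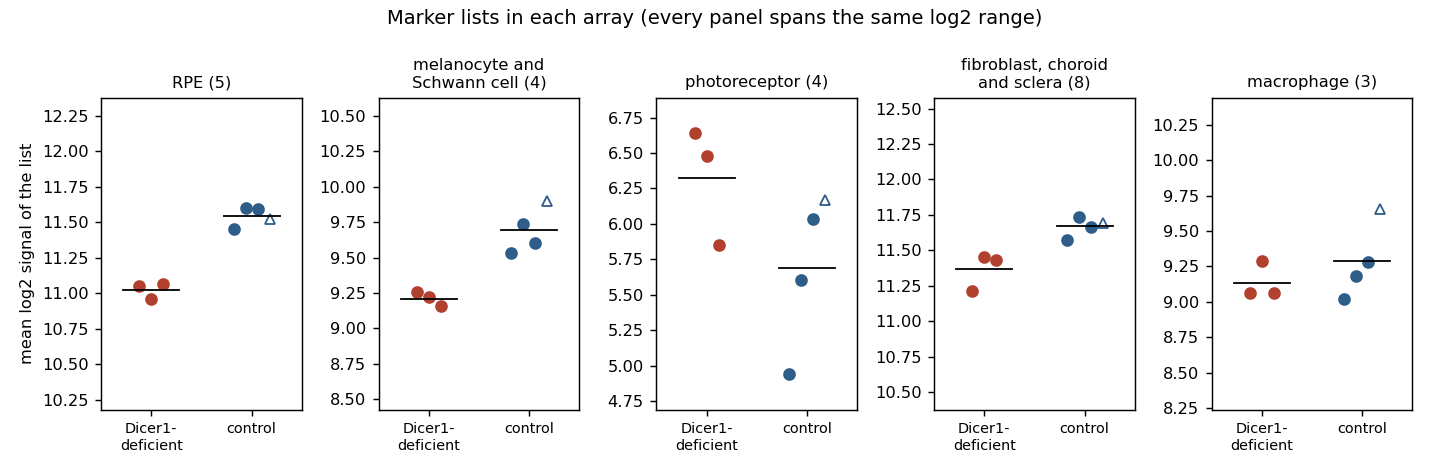
Mean log2 signal of 5 marker lists in the 3 Dicer1-deficient arrays (left in each panel) and the 4 control arrays (right), with black bars at group means and control array 4 as an open triangle. The RPE, melanocyte and fibroblast lists are lower in all 3 Dicer1-deficient arrays, and the photoreceptor and macrophage lists overlap.

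The genes whose brightest probe set ran most like that of a melanosome gene over the 7 arrays were sought among genes above the median level. For Pmel these were Stau2, Etv1 and Raph1 (Pearson r 0.962, 0.939 and 0.912). For Mlph they were Pafah1b1, Man1a and Tspan15 (r 0.965, 0.957 and 0.952), and for Mreg they were Itpkb, Wars and Tmc6 (r 0.969, 0.952 and 0.950). Each is the highest of 2507 or 2508 candidates across only 7 arrays that share their normalization, so these values describe the arrays. None of these 9 genes passed the limma test between the groups.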

How the data were processed

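Total RNA was labelled with biotin and hybridised to Affymetrix arrays; this is per the labels' protocols. The authors deposited log2 signals per probe set, and the submitters' processing notes name RMA and Partek 6.6 without their roles. No genome build, probe alignment or filter is named in the sources used here. Quantile normalization, a usual part of RMA, would remove differences in total RNA. Values from 2.71 to 13.5 show the log2 scale.

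Of 65535 probe sets, 53644 had 1 gene symbol, 877 several and 11014 are unnamed here. Symbols were updated through RefSeq's mouse gene table: 4321 were current, 698 updated and 13 unmatched. The 5017 genes lie mostly (4918) on chromosomes 1, 10, 11, 12 and 13. The design had assumed 1 row per gene.

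Groups came from the labels (3 Dicer1-deficient, 4 control arrays), and replicate numbers only name arrays. Each gene was represented by its brightest probe set (by the mean of all 7 arrays) and tested with limma 3.58.1 (lmFit, eBayes, two-sided, no filter on dim genes) in R 4.3.3, with 2.82 prior and 5 residual degrees of freedom. Probe sets were tested in a separate fit. Errors of means are SDs. The number of arrays limits the precision. The code was tested on simulated data. Figures were drawn with matplotlib 3.10.9 in Python 3.11.15.

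The 10 genes, the lists and the tests were chosen with earlier results of these data known. Named are all 10 genes, in each pathway list the genes past the threshold or else the 2 largest changes, and in each marker list the 2 brightest genes, with all melanocyte markers. Like patterns were sought for Pmel, Mlph and Mreg, 3 genes each. Alternatives were the mean or median of probe sets, quantile normalization again, median centring, a filter on dim genes, a variance trend, array weights and each array left out. A further one was the mean of probe sets without control array 4, the array that stood apart. That combination was not run for the 10 genes with any other array. The count of groups that do not overlap without control array 4, and the averaged value of Bloc1s1 with each array left out, were added after the data were seen.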

Additional observations from a re-analysis of the deposited data

Results flagged for a closer look

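In Bloc1s1, control array 4 lay below the other controls, which were close together. At the brightest probe set it read 10.26, with the Dicer1-deficient arrays at 10.28, 10.11 and 10.18 and controls 1 to 3 at 10.42, 10.45 and 10.42. On the mean of probe sets it read 8.86, with controls 1 to 3 at 9.05 to 9.07. Its gap to the nearest control exceeded Dixon's critical value for 4 samples in both summaries. Chance alone gives such a gap in about 1 of 20 groups, and 20 were examined. The 2 found are of the same gene and share their probe sets, and the cause was not tested.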

How the results depend on the processing

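Over 15 alternatives for each of the 10 genes, 126 of 150 values kept their direction and their side of the threshold, 18 turned sign and 6 came past the threshold. All signs that turned were those of Pmel, Tspan10, Lyst, Dtnbp1, Ap3d1 and Ap3b1, and the cause was not tested. On the mean of probe sets Tspan10 was 0.038, Dtnbp1 -0.0457 and Ap3b1 0.00085, and on the median Tspan10 was 0.25 and Dtnbp1 -0.0460. Quantile normalization again gave 0.030 for Pmel and 0.0044 for Ap3b1, median centring -0.015 for Ap3d1 and array weights 0.0074 for Ap3b1. On the mean without control array 4 they were 0.028 for Tspan10, -0.14 for Dtnbp1 and 0.0022 for Ap3b1. With 1 array left out, Lyst ran from -0.21 to 0.039, Dtnbp1 from -0.057 to 0.22, Ap3d1 from -0.058 to 0.060 and Ap3b1 from -0.065 to 0.018, while Pmel (-0.07 to -0.02), Mlph (-0.77 to -0.31), Mreg (-1.11 to -0.63), Tspan10 (-0.33 to -0.24), Bloc1s1 (-0.24 to -0.15) and Bloc1s5 (-0.83 to -0.32) stayed negative.

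Of the 10 genes, 0 fell by limma at the brightest probe set, 1 on the mean (Bloc1s1), 1 on the median of probe sets (Mlph), and 4 on the mean without control array 4. Leaving out any 1 array at the brightest probe set gave 0. Groups that do not overlap went to 4 without control array 4, against 1 with it. Probe sets of these genes past the threshold numbered 1, with a variance trend 0, with array weights 4, and with 1 array left out 0 to 2. Pathway genes that rose numbered 3, and 2 to 4 under the alternatives. Sox9, named after its values were seen, rose on the mean (0.33, limma adjusted p = 0.0461) and on the mean without control array 4. Those that fell numbered 0, and 3 on the mean without control array 4 (Rab32, Sgsm2 and Dctn2). Over all genes, 71 rose and 46 fell. On the mean these were 152 and 142, on the median 97 and 79, with array weights 217 and 168, on the mean without control array 4 338 and 515, and with 1 array left out 20 to 159 and 13 to 101. Signals below the median of all probe sets, as in most of Mreg, limit what can be seen. No paired analysis was possible because the labels give no replicate numbers.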
